A study of Mus musculus with 2 samples.

Results

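The nuclear-encoded respiratory chain genes were taken as the GENCODE protein-coding genes on chromosomes 1 to 19 and X whose symbols begin with Nduf, Uqcr, Atp5, Cox4, Cox5, Cox6, Cox7 or Cox8, together with Sdha, Sdhb, Sdhc, Sdhd, Cycs and Cyc1, leaving out the assembly factors named Ndufaf. The rule used names alone and gave 87 of 21728 protein-coding gene symbols. Of these, 36 belong to complex I, 4 to complex II, 9 to complex III, 18 to complex IV, 17 to complex V and 1 is cytochrome c, and the Ndufa4 family of 2 genes was kept apart because its protein is now placed with complex IV. The data are DNase-seq of gastrocnemius, a calf muscle rich in fast fibres, from 2 males of the mouse strain B6CASTF1/J at 25 days of age. The labels name no treatment or engineered allele, the strain is an F1 hybrid of C57BL/6J and CAST/EiJ, and the reference mm10 is C57BL/6J. There is 1 group with 2 libraries, replicates 1 and 2, so every value below is a description of these libraries and no groups of mice were compared.

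The respiratory chain passes electrons from NADH (complex I) and succinate (complex II) through ubiquinone, complex III and cytochrome c to oxygen at complex IV, and complex V makes ATP from the proton gradient that results. Most of its subunits are encoded in the nucleus, while a core set is encoded in mitochondrial DNA, which was not analysed here. Nuclear respiratory factor 1 (NRF1), the ETS factor GABP (also called NRF-2), YY1 and the oestrogen-related receptors (ERR) are known regulators of these genes. Heart and skeletal muscle of mice use their own forms of 3 complex IV subunits, Cox6a2, Cox7a1 and Cox8b, in place of the forms of most tissues, Cox6a1, Cox7a2 and Cox8a.

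DNase-seq reads the places where DNase I can cut chromatin. A peak is a region of many cuts and a footprint is a short stretch that is cut less than its surroundings. Footprints were counted whether or not they lay inside a called peak. The longer of each library's peak lists held 97499 peaks in replicate 1 and 61664 in replicate 2. The deposited peak signals rise in equal steps, as counts of tags scaled to 1000000 tags (M) of a library would, and the size of the step then gives 169 M tags for replicate 1 and 117 M for replicate 2. A gene's promoter peaks were those within 1 kb of any annotated start, and its promoter signal was the highest of them. No source used here states the unit, so tags per M and the tag numbers below hold on this reading of the steps. The highest peak is not a sum over the gene, but it was sought over windows of 2.00 to 10.1 kb, longer for genes with more starts. All 8 myofibre marker genes had a promoter peak in both libraries, against 1 of 4 cardiac markers, with no peak at Myh6 or Nppa, and 1 of 3 leukocyte markers, with none at Ptprc or Csf1r. All 3 endothelial and both fibro-adipogenic markers also had a peak in both libraries, with signals between 0.60 and 4.34 against 1.58 to 11.3 at the myofibre markers. Of the remaining marker lists, 1 of 3 brown adipocyte, 1 of 2 germline and both neuronal genes had a peak in both libraries. The part of other cell types in the values below was not tested. In whole muscle, fewer cells of a type and less accessibility per cell cannot be told apart.

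Nearly every respiratory chain gene had an accessible promoter in this muscle. A promoter peak was present at 84 of the 87 genes (96.6%) in replicate 1, in replicate 2 and in both, against 67.0%, 64.7% and 63.5% of all coding genes. Footprints lay in the same windows of 84 genes in each library and in both, against 65.5%, 63.3% and 62.0% of all coding genes. Every gene of complexes I, II, III and V, both genes of the Ndufa4 family and Cycs had a peak and a footprint in both libraries, as did 15 of 18 complex IV genes. The strongest promoter peaks of the libraries overlapped at 79 of these 84 genes (94.0%), against 93.7% of all coding genes with a peak in both. At Ndufa13, Ndufs1, Ndufb11, Atp5d and Atp5l they did not overlap, so the values given for these 5 genes come from a different peak in each library.

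The genes without a promoter peak were Cox4i2, Cox7b2 and Cox8c. Cox4i2 is a lung form of subunit 4, and Cox7b2 and Cox8c are testis forms. None of them had a footprint or a single position with a listed q-value below 0.05 within 1 kb of its principal start in either library. Cox4i2 nevertheless had 7 peaks in replicate 1 and 5 in replicate 2 that lay outside all promoters and within 20 kb of the gene, whereas Cox8c had 0 in both. Cox6b2, a testis form of subunit 6b, did have a weak promoter peak, with signals of 0.93 and 1.10 tags per M, against 2.92 and 2.26 at Cox6b1, the common form.

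Where a peak was present, the typical respiratory chain promoter stood above the typical coding promoter. The median signal was 5.45 tags per M in replicate 1 and 4.43 in replicate 2, against medians of 3.57 and 3.43 over all coding genes with a promoter peak. The values of the members ran between 0.88 and 10.7 in replicate 1 and between 0.91 and 10.2 in replicate 2. Ranked among all coding genes with a peak, the median member stood at percentile 68.5 in replicate 1 and 64.3 in replicate 2, and 66 and 61 of the 87 genes (75.9% and 70.1%) lay above the median of coding genes with a peak, against 33.5% and 32.3% of all coding genes, many of which have no peak. Medians of the complexes on this scale were 71.4 and 73.7 for complex I, 75.8 and 71.8 for complex II, 58.5 and 62.1 for complex III, 57.7 and 49.9 for complex IV, and 76.3 and 63.3 for complex V. Complexes I, II, III and V thus stood above complex IV in both libraries, complex III only narrowly in replicate 1. Single genes of each complex overlapped widely. The complex IV medians include restricted forms. Cox6a2, Cox6b2 and Cox8b stood at percentiles 15.4, 16.3 and 25.9 in replicate 1, and 11.1, 14.9 and 18.8 in replicate 2. Cox7a1 stood at 57.7 and 37.7. Medians without these forms were not computed.

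**Figure D1:**
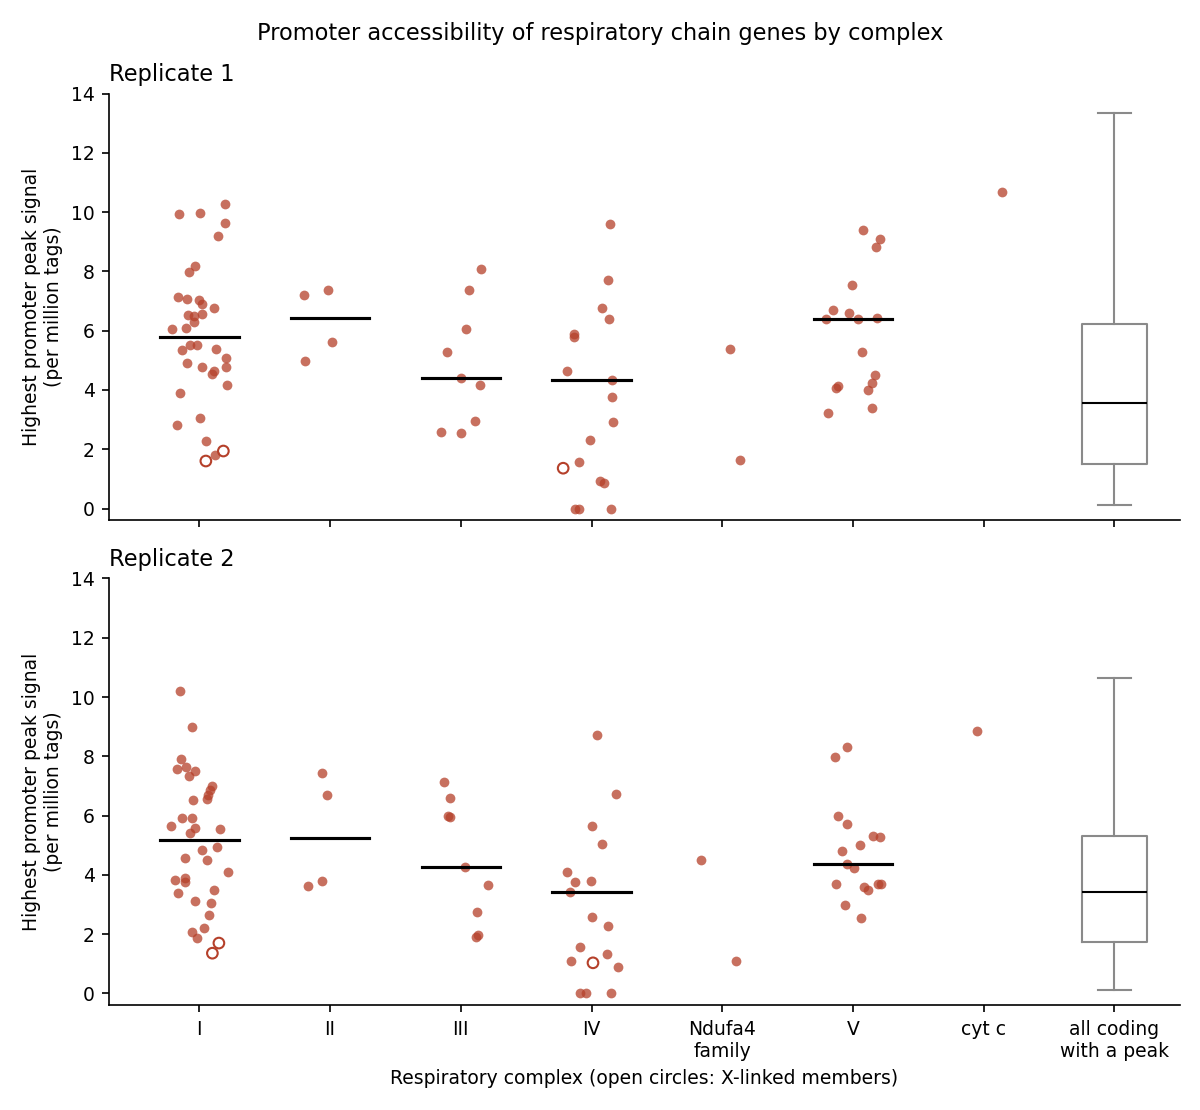
Highest promoter peak signal (vertical axis, tags per M) of each respiratory chain gene by complex, in replicate 1 (top) and replicate 2 (bottom), with a black line at the median of genes with a peak in each complex of more than 2 genes, open circles for X-linked genes, and a box (median, quartiles, whiskers to 1.5 times the interquartile range, outliers not drawn) for all coding genes with a promoter peak. Most points lie above the coding medians of 3.57 and 3.43, and the 3 complex IV genes at 0 are Cox4i2, Cox7b2 and Cox8c.

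Cytochrome c, the soluble carrier between complexes III and IV, had one of the strongest promoters of the set. Cycs reached 10.7 tags per M (1807 tags) in replicate 1 and 8.87 (1038 tags) in replicate 2, at percentiles 96.0 and 96.8. In its promoter, printed here from 150 bp before to 30 bp after the principal start on its own strand (mm10 coordinates), capitals mark the bases that lay in footprints of both libraries.
Cycs (chr6:50566509-50566688, minus strand): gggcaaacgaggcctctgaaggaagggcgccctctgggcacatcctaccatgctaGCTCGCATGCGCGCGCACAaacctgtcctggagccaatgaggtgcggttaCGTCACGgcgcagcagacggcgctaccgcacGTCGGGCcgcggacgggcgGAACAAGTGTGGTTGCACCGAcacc
Among the capitals stands an NRF1 match centred at −88 bp, where negative positions lie before the start. NRF1 binding to the cytochrome c promoter is known from rat and human genes. Further upstream, outside the printed stretch, a CREB match centred at −196 bp also lay in footprints of both libraries.

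In complex I, which oxidises NADH, the strongest promoters belonged to Ndufa7 and Ndufa8, both accessory subunits. Ndufa7 had signals of 9.95 and 10.2 and Ndufa8 of 10.3 and 9.0, but the peak at each is shared with a neighbour, Rps28 and Morn5. The 7 core subunits, which carry the flavin and iron-sulphur clusters or the quinone site, had a median percentile of 79.6 in replicate 1 and 65.2 in replicate 2, and the 29 accessory subunits 69.1 and 77.7, so the order of the classes was not the same in both libraries. Of the core subunits, the iron-sulphur protein Ndufs1 had 7.04 and 3.78, Ndufv1, which binds NADH and the flavin, 7.15 and 4.50, and Ndufs7 6.88 and 5.92. Ndufv2 had 4.78 and 3.49, Ndufs8 4.18 and 4.56, and Ndufs3, at 3.04 and 3.13, was the lowest of the core in both libraries. Ndufab1, the mitochondrial acyl carrier protein and also an accessory subunit, had 2.82 and 2.65. Next below Ndufa7 and Ndufa8 among the accessory subunits by mean percentile came Ndufa13, with 9.94 and 7.35, and Ndufv3, with 9.63 and 6.86, both beside another coding gene. The 29 accessory subunits ran between 1.60 and 10.3 in replicate 1 and between 1.36 and 10.2 in replicate 2. The lowest complex I promoters were Ndufa1, with 1.94 and 1.36, and Ndufb11, with 1.60 and 1.70.

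Ndufa1 and Ndufb11 are X-linked accessory subunits, and the X-linked gene Cox7b of complex IV was also low, at 1.36 and 1.03. Male mice carry a single X, and the part of copy number in these values was not tested. The median signal over all X-linked coding genes with a promoter peak was 1.64 in replicate 1 and 1.5 in replicate 2, so the 3 genes, with medians of 1.60 and 1.36, lay near the middle of their chromosome. On the autosomes, 81 members with a peak had median percentiles of 69.1 and 65.4.

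Complex II, succinate dehydrogenase, is the only complex here with no mitochondrially encoded subunit, and all 4 of its genes lay above the coding median in both libraries. Sdha, the flavoprotein, had signals of 7.22 and 7.45. Sdhc and Sdhd, the membrane anchors, had 5.61 and 6.71, and 4.97 and 3.62. Sdhb, the iron-sulphur subunit, had 7.38 in replicate 1 and 3.8 in replicate 2, so its place within the complex depended on the library.

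In complex III the strongest promoters were those of Uqcrq, with 7.36 and 7.13, and Uqcrfs1, the Rieske iron-sulphur protein, with 8.08 and 6.00. The lowest were Uqcrb, with 2.59 and 1.89, and Cyc1, cytochrome c1, with 2.95 and 1.97. The core proteins Uqcrc1 and Uqcrc2 differed, at 5.27 and 5.95 against 2.56 and 2.74. Uqcrh, the hinge protein, had 6.07 and 6.61, and the small subunits Uqcr10 and Uqcr11 had 4.18 and 4.27, and 4.40 and 3.65. The values of Uqcrb and Cyc1 lay below those of Uqcrq and Uqcrfs1 in both libraries.

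Complex V, the ATP synthase, had its highest promoters at Atp5g2, with 9.09 and 7.98, and Atp5mpl, with 6.69 and 8.32. Atp5b, the catalytic beta subunit, had 8.82 and 5.31, and Atp5a1, the alpha subunit, 3.99 and 3.71. Of the other parts of the F1 head, Atp5c1 (gamma) had 7.54 and 6.00, Atp5d (delta) 5.28 and 3.70, and Atp5e (epsilon) 6.41 and 4.25. In the peripheral stalk, Atp5f1 (subunit b) had 6.39 and 5.02, Atp5h (subunit d) 6.39 and 5.28, Atp5j (factor 6) 4.13 and 3.70, and Atp5o, which confers sensitivity to oligomycin, 4.07 and 3.49. These genes lay above the coding medians in both libraries. Atp5g1, Atp5g2 and Atp5g3 encode the same mature c subunit of the membrane ring. Atp5g1 had 9.39 in replicate 1 and 3.61 in replicate 2, and Atp5g3 had 4.22 and 4.80. The highest of the 3 was thus Atp5g1 in replicate 1 and Atp5g2 in replicate 2. The lowest were Atp5l and Atp5j2, subunits g and f of the membrane part, with 3.23 and 2.55, and 3.41 and 2.97.

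The muscle forms of complex IV subunits had weaker promoters than the common forms of the same subunits in all 3 pairs and both libraries. Cox6a2 had 0.88 tags per M in replicate 1 and 0.91 in replicate 2 (148 and 106 tags), against 9.59 and 8.72 at Cox6a1 (1621 and 1020 tags). The log2 ratio of Cox6a2 over Cox6a1 was −3.36 ± 0.13 (SD, n = 2), the widest of the 3 pairs, and −2.71 when all promoter peaks of a gene were summed. Cox8b had 1.57 and 1.32, against 6.41 and 4.08 at Cox8a, a log2 ratio of −1.83 ± 0.29. Cox7a1 had 4.33 and 2.58, against 5.89 and 3.79 at Cox7a2, a log2 ratio of −0.50 ± 0.08. Each ratio was larger in size than its spread between the libraries, and with 2 libraries no test was made. Cox6a2 stood at percentiles 15.4 and 11.1, the lowest place of any member with a peak, although its promoter peak was called in both libraries.

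**Figure D2:**
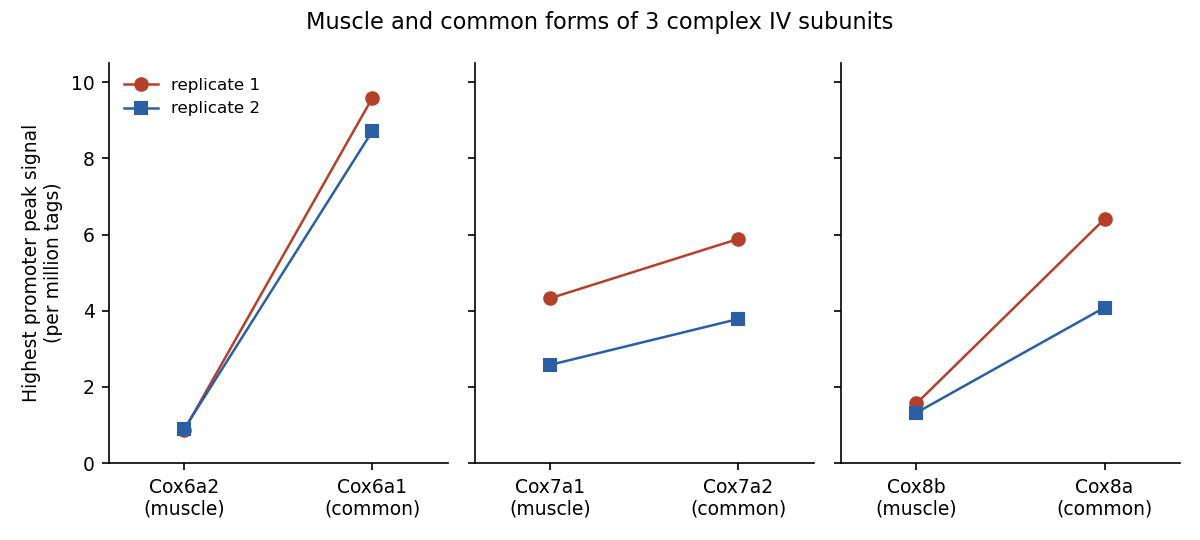
Highest promoter peak signal (vertical axis, tags per M) of the muscle form (left) and the common form (right) of 3 complex IV subunits, with circles and a line for replicate 1 and squares for replicate 2. All 6 lines climb to the right, most steeply for Cox6a2 at 0.88 and 0.91 against Cox6a1 at 9.59 and 8.72.

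The paired promoters also differed in letters. In the 300 bp from 250 bp before to 50 bp after the principal start, GC content was 43.7 to 51.3% in the muscle forms, against 54.0 to 62.3% in the common forms. The ratio of observed to predicted CpG dinucleotides was 0.11 to 0.30 in the muscle forms, against 0.83 to 1.03 in the common forms, with no overlap. The median ratio was 0.78 over all 87 members and 0.56 over all coding genes, and 0.80 against 0.75 with a peak in both libraries. None of the muscle forms held an NRF1, ETS or YY1 match, and 2 of the 3 common forms did. The pairs are printed to let those letters be read side by side, as above with capitals for bases in footprints of both libraries.
Cox6a2 (chr7:128206358-128206537, minus strand): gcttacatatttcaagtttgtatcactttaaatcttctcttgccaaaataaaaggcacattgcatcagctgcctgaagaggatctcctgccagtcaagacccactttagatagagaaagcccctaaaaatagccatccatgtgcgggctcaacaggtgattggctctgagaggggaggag
Cox6a1 (chr5:115348952-115349131, minus strand): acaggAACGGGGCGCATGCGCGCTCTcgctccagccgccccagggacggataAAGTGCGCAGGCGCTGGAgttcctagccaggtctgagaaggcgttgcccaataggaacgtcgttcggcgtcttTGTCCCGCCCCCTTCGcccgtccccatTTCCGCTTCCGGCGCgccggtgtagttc
Cox7a1 (chr7:30183994-30184173, plus strand): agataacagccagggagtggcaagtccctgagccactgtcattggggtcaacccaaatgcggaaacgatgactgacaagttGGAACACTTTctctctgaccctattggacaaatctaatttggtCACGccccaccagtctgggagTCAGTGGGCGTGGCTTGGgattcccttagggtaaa
Cox7a2 (chr9:79759849-79760028, minus strand): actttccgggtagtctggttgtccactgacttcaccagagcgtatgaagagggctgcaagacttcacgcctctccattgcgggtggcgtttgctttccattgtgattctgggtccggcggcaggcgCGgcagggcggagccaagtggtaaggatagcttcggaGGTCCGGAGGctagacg
Cox8b (chr7:140900417-140900596, minus strand): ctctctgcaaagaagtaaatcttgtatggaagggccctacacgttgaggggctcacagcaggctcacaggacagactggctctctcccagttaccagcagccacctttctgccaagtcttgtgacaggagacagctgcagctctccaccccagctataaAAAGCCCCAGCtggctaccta
Cox8a (chr19:7217587-7217766, minus strand): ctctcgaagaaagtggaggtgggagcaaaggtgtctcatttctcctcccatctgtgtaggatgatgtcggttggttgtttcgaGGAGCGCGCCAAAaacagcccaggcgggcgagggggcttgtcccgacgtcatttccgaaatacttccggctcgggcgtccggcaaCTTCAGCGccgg
The Cox6a1 stretch has 70 bases in footprints of both libraries, which cover its NRF1 matches, an SP and KLF match and an ETS match. The Cox6a2 stretch has 0, and it holds a MEF2 match centred at −23 bp and a myogenic E-box, the sites of muscle regulators, neither of which lay in a footprint of both libraries. However, the E-box lay outside the strongest Cox6a2 peak of both libraries, and the MEF2 match outside that of replicate 2. With 148 and 106 tags at these peaks, the lack of a shared footprint does not tell whether the sites are bound. Cox6a2 was the only member with a MEF2 match in this window, against 598 of all 21728 coding promoters. In Cox8b, 11 bases lay in footprints of both libraries, including part of a myogenic E-box centred at 19 bp. Cox7a1 matched none of the 12 motifs and had 32 such bases, Cox7a2 had 12 and Cox8a 21.

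The other members of the families with restricted forms ranged widely. Cox4i1, the common form of subunit 4, had 4.63 and 3.77. Cox7a2l, which is related to the subunit 7a forms and acts in supercomplex assembly, had 3.76 and 3.43. Ndufa4 had 5.39 and 4.51, against 1.65 and 1.10 at Ndufa4l2, a form known from hypoxia. The strongest complex IV promoters after Cox6a1 were those of Cox6c, with 6.77 and 6.72, and Cox5b, with 7.72 and 5.05. Cox5a had 5.79 and 5.64, and Cox7c was lower, at 2.30 and 1.56.

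The 300 bp promoters were scanned on both strands for the letters of 12 motifs: NRF1 (GCGCANGCG), ETS (CCGGAAG), YY1 (AANATGGCG), SP and KLF (GGGCGGG), CREB (TGACGTCA), ERR (TCAAGGTCA), the myogenic E-box (CAGCTG), the TATA box (TATAAA), MEF3 (TCAGGTT), AP-1 (TGANTCA), TEAD (GGAATG) and the MEF2 consensus. NRF1 can match both strands of one site 1 bp apart, and such matches were counted separately. A MEF2 match can overlap a TATA box. Each search finds a fixed spelling and misses related ones.

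NRF1 matches stood in 16 of 87 member promoters (18.4%), against 8.33% of all coding promoters. Restricted to promoters with a peak in both libraries, the shares were 19.05% of the members and 12.6% of all coding genes. ETS matches stood in 17.2% of member promoters and 11.3% of all coding promoters, and with a peak in both libraries in 17.9% and 16.2%. YY1 matches stood in 6.90% and 3.15%, and with a peak in both libraries in 7.14% and 4.64%. CREB matches stood in 5.75% and 2.50%, and with a peak in both libraries in 5.95% and 3.30%. SP and KLF matches went the other way, at 27.6% of member promoters and 33.8% of all coding promoters, and at 26.2% and 47.2% with a peak in both libraries. At least one of NRF1, ETS and YY1 was found in 31 members (35.6%), against 20.1% of all coding promoters. With a peak in both libraries the shares were 36.9% of members and 29.3% of all coding genes, and among coding genes with no peak in either it was 3.52%. An ERR match was found in Sdhd and Atp5g3 alone, or 2.30% of members, against 0.40% of all coding promoters. Neither lay in a footprint of either library, and the same held for all 42 ERR matches in coding promoters with a peak in both.

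**Figure D3:**
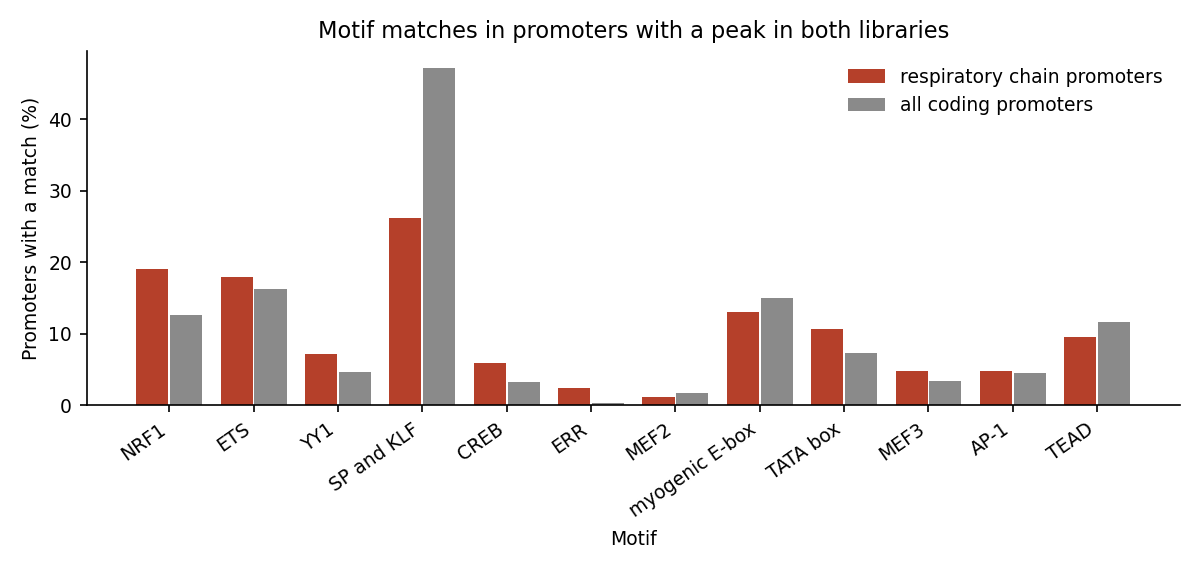
Percent of promoters that hold at least 1 match to each of 12 motifs (horizontal axis) among genes open in both libraries, for the 84 respiratory chain genes (red, left bars) and all 13798 coding genes (grey, right bars). NRF1 was found in 19.05% and 12.6%, and SP and KLF in 26.2% and 47.2%.

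The NRF1 matches were spread over the complexes. They stood in 4 complex I genes, both Sdha and Sdhd of complex II, 2 complex III genes, Cox6a1 alone in complex IV, 6 complex V genes and Cycs. Of the 24 matches, 20 (83.3%) in 14 genes had their centre in a footprint of both libraries, against 74.8% of the 2442 matches in all coding promoters with a peak in both. The footprinted sites are printed because they are the short stretches where an NRF1 spelling and a footprint coincide. They read 5′ to 3′ on the strand of the gene, on mm10, with the match in capitals, overlapping matches joined, and 8 flanking bases on either side, which lie outside the coordinates.
Atp5g2 (chr15:102671080-102671089): ctccggccGCGCATGCGCagagcctt
Atp5g3 (chr2:73911305-73911313): ccgcaccgCGCTTGCGCgcccagcc
Atp5h (chr11:115420052-115420060): ccccgacgGCGCAGGCGccgcgccc
Atp5k (chr5:108434441-108434449): tcactgcgGCGCATGCGcctttctg
Atp5mpl (chr12:111967063-111967071): gctgtggtGCGCAGGCGcggaaggc
Cox6a1 (chr5:115349067-115349075): gataaagtGCGCAGGCGctggagtt
Cox6a1 (chr5:115349111-115349120): ggaacgggGCGCATGCGCgctctcgc
Cycs (chr6:50566622-50566630): tgctagctCGCATGCGCgcgcacaa
Ndufa11 (chr17:56717702-56717711): tgcactgcGCGCATGCGCgcacgcct
Ndufa8 (chr2:36049359-36049367): gagcagtgCGCTTGCGCgtcgctgg
Ndufb4 (chr16:37654439-37654447): ttgtgcgcGCGCAGGCGcacttcct
Ndufb4 (chr16:37654551-37654559): gaagcagtGCGCACGCGcagaatac
Ndufs5 (chr4:123718276-123718284): tgcttgctGCGCAGGCGcagacccg
Sdha (chr13:74350242-74350250): gactcggtGCGCAAGCGcagtctgt
Sdha (chr13:74350287-74350295): ggcgtgttGCGCAGGCGcagaatct
Sdhd (chr9:50603920-50603928): gctggggtGCGCACGCGcggtggca
Uqcr11 (chr10:80406818-80406826): cgccttcaCGCATGCGCtatacgtc
The sites differ in their flanks and, within the match, at the position that the search letters leave free. The median position of the matches was −57 bp. The matches of Uqcrc1 and Atp5l, the other 2 genes, lay in footprints of neither library and of replicate 1 alone.

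CREB and YY1 matches were fewer. Of 5 CREB matches in members, 4 lay in footprints of both libraries, at Cycs, Ndufa10, Ndufb2 and Uqcrfs1, or 80.0%, against 72.5% of CREB matches in all coding promoters with a peak in both. Of 6 YY1 matches, 3 lay in footprints of both libraries, those of Ndufb11 and Ndufs7 among them, or 50%, against 23.5% in all coding promoters with a peak in both. Of 18 ETS matches, 5 did so, or 27.8%, against 23.7% of ETS matches in all coding promoters with a peak in both. The YY1 site of Ndufs7, a core subunit of complex I, lay at 25 bp, and both sites are printed in the same way as the NRF1 sites.
Ndufb11 (chrX:20617822-20617830): accaacacAAAATGGCGacgagaag
Ndufs7 (chr10:80249473-80249481): ccgaggccAAGATGGCGgcgctggc

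Footprints of the members lay close to the start. Genes with a promoter peak had a median of 7 footprints in each library, the same as all coding genes, and the windows searched had a median length of 2.63 kb over all members and 4.0 kb over all coding genes. Per kb of window the medians were 2.00 and 2.09 for members with a peak, against 1.47 and 1.49 for all coding genes with a peak. In the 50 bp centred 25 bp after the principal start, members had 0.98 footprint centres per gene in replicate 1 and 0.81 in replicate 2, against 0.63 and 0.61 for all coding genes with a peak in both libraries. The centre of the strongest peak lay within 100 bp of the principal start in 76.2% and 64.3% of members with a peak, against 52.4% and 46.8% of all coding genes with a peak. Of the 606 and 636 footprints at members, 59.2% and 58.6% overlapped a footprint of the other library, against 52.1% and 53.7% at all coding genes. The most footprints stood at Ndufa11, with 18 and 20, Atp5g2, with 17 and 18, and Ndufa13, with 13 and 21, whose mean Atp5j equalled with 16 and 18. The windows of Atp5g2 and Atp5j, at 5.23 and 7.75 kb, were longer than the members' median of 2.63 kb. At Ndufa11 and Ndufa13 the strongest peaks were centred 717 to 878 bp from the principal start. They also lay within 1 kb of a start of another coding gene. The share of these footprints that belongs to a neighbour was not tested. Within 1 kb of the principal start, the median member had 875 and 819 bp with a listed q-value below 0.05. The medians over all coding genes were 550 and 518 bp. Both sets include genes with no such position. Such positions were listed for 84 of 87 members in each library, against 13904 and 13434 of 21728 coding genes. Medians over genes with a listed position were not computed, so these values do not tell whether the stretches at open members were longer.

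**Figure D4:**
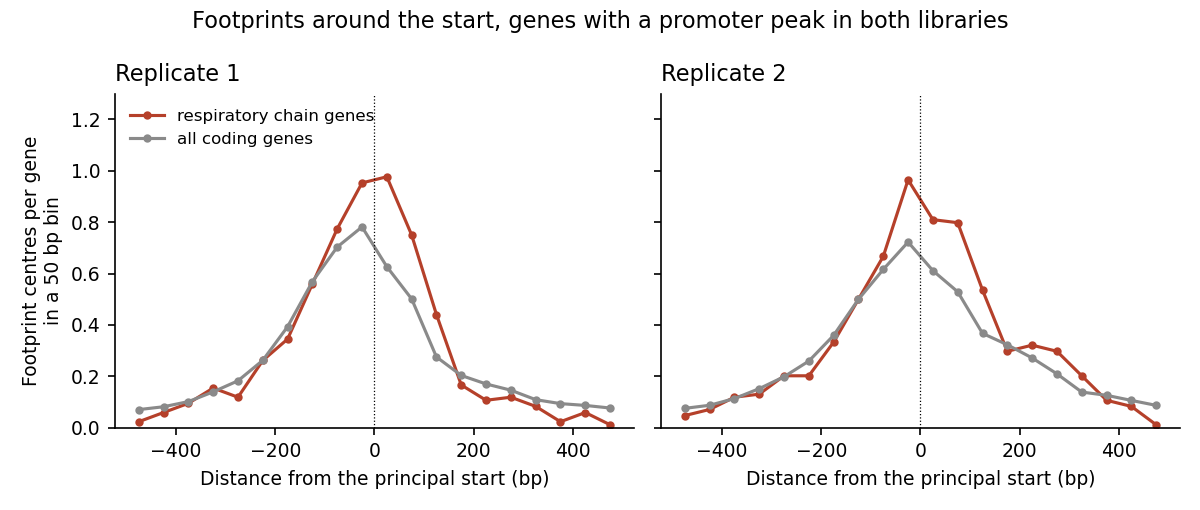
Footprint centres per gene in 50 bp bins (vertical axis) by distance from the principal start (horizontal axis, bp, positive inside the gene) in replicate 1 (left) and replicate 2 (right), for respiratory chain genes (red, n = 84) and all coding genes (grey, n = 13798) open in both libraries. Both curves are highest near the start, and at 25 bp the members have 0.98 and 0.81, against 0.63 and 0.61.

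Many members share their promoter with a neighbour. The strongest promoter peak also lay within 1 kb of a start of another coding gene at 30 of 84 members in replicate 1 (35.7%) and 31 in replicate 2 (36.9%), against 18.9% and 19.6% of all coding genes with a peak. It did so in both libraries at 30 members, against 19.5% of all coding genes with a peak in both. Such a peak is not the value of the member alone. Sharing in both libraries was counted in 15 of 36 complex I genes and 3 of 4 complex II genes. It was also counted in 4 of 9 complex III genes and 6 of 17 complex V genes. In complex IV it was counted in only 1 of 15 genes with a peak, Cox4i1, which lies beside Emc8. In the Ndufa4 family, kept apart here, 1 of 2 genes also shared its peak in both libraries, Ndufa4 with Phf14. Several partners also serve mitochondria: Sdhd shares with Timm8b, an inner membrane import chaperone, and Ndufs6 and Ndufb5 with Mrpl36 and Mrpl47, proteins of the mitochondrial ribosome. Atp5j shares with Gabpa, the DNA-binding subunit of GABP, and had signals of 4.13 and 3.70. These partners were picked after their names were seen, and others, such as Gdf9 beside Uqcrq, have no such role.

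Peaks outside all promoters were not more frequent near the members in both libraries. A distal peak within 20 kb of the gene was found for 71 members (81.6%) in replicate 1, 44 (50.6%) in replicate 2 and 43 (49.4%) in both, against 71.1%, 56.7% and 54.2% of all coding genes. The count therefore stood above the coding share in the deeper library and below it in the other. The span searched includes the gene body and grows with its length, and the shares were not matched for length. Atp5o had 22 and 10, over a span of 247 kb from its joined gene identifiers against a median length of 7.28 kb for members. Ndufs8 had 1 and 10. Of the muscle forms, Cox8b had 6 and 3, Cox7a1 had 3 and 0, and Cox6a2 had 1 and 0.

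After centring on the median of all coding promoters, which was 0.12 on the log2 scale of replicate 1 over replicate 2, the median member stood at 0.11. The highest ratios were at Atp5g1 (1.27), Ndufa5 (1.08) and Sdhb (0.84), and the lowest at Ndufa12, Ndufa10 (both −0.46) and Ndufb7 (−0.44). At Atp5g1 the signal was 9.39 in replicate 1 against 3.61 in replicate 2, and at Ndufa5, an accessory subunit of complex I, 4.79 against 2.08. These were the only 2 members beyond a 2-fold difference, against 1.98% of all coding genes with a peak in both libraries. The labels name sequencers for replicate 1 alone, so a difference in sequencing and a difference between the animals cannot be told apart.

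**Figure D5:**
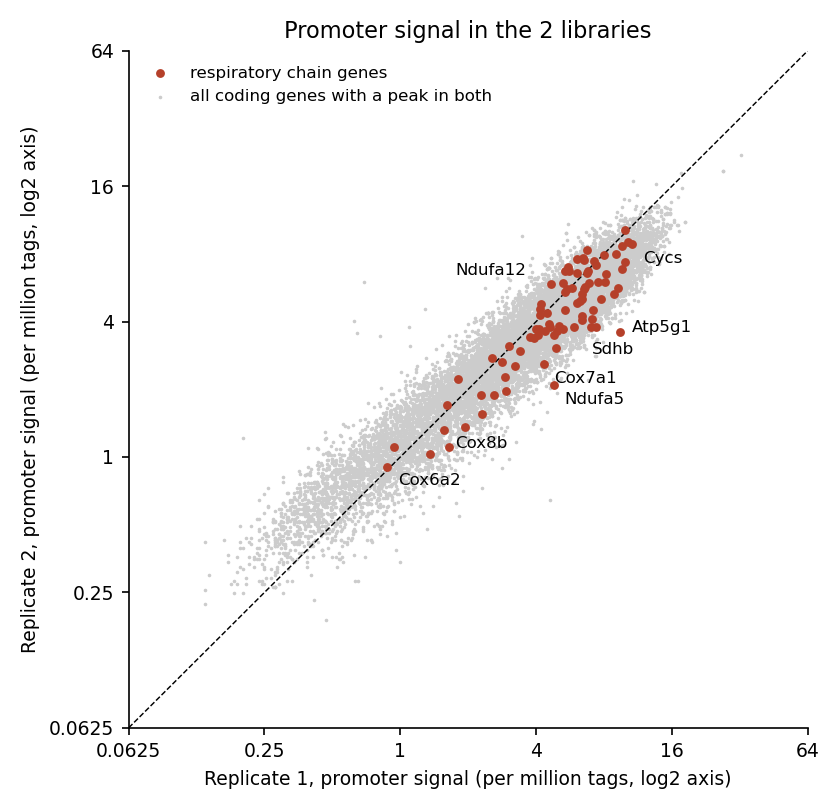
Promoter signal in replicate 1 (horizontal axis) and replicate 2 (vertical axis), both tags per M on log2 axes, for 84 respiratory chain genes (red) among all 13798 coding genes open in both libraries (grey), with a dashed line at equal values. Atp5g1 (9.39 and 3.61) and Ndufa5 (4.79 and 2.08) lie farthest below the line among the members.

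Genes that assemble the chain, taken from a list of 49 assembly factors, were likewise mostly open. A promoter peak was present in both libraries at 48 of the 49, all but Sdhaf1, a complex II factor, against 63.5% of all coding genes. Their median percentiles were 72.7 and 76.2, beside 68.5 and 64.3 for the members. The highest were Ndufaf8, with signals of 11.8 and 11.4, Ndufaf4, with 9.13 and 9.32, and Tmem126b, with 9.88 and 7.25, all factors of complex I. The lowest with a peak were Coa3, with 1.96 and 1.96, and Atpaf1, with 1.67 and 2.47.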

How the data were processed

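DNase-seq libraries of the gastrocnemius of 2 male mice were analysed from deposited lists on mm10. Per the labels they are biological replicates whose descriptions number different males, although both carry 1 donor identifier, so the SDs measure only the spread between these libraries. The signal of each peak is the authors' deposited value, and the footprint lists and per-position q-values (p-value type, listed only below 0.05) were also deposited by the authors. Per the deposited notes each list derives from its own library. Aligner, peak caller and footprint caller: not given in the sources used here. Positions were compared with GENCODE M21 on GRCm38, the assembly of mm10, with Python 3.11.15, numpy 2.4.6, pandas 2.3.3 and scipy 1.17.1, and the steps were tested on simulated data.

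The longer peak list was used, a promoter was 1 kb on either side of any start, overlap was at least 1 bp, and a distal peak lay outside the promoters of all annotated genes. Atp5o has 2 gene identifiers, joined under its symbol. The principal start is that of the coding transcript with the best APPRIS rank in the annotation, with ties settled first by transcript support level. At some members, such as Atp5f1, Atp5j2 and Ndufa5, the strongest peak lay outside the 300 bp promoter of that start in both libraries. Sequences and motifs come from the RefSeq copy of GRCm38, read by coordinates with pysam 0.24.0. A few peaks of a list overlap each other. No test was made, because there is 1 group of 2 libraries. The members, lists and motifs were chosen with earlier results of these data known. Genes named are the families with restricted forms, the 2 highest and 2 lowest of each complex by mean percentile, genes without a peak, and the 3 extremes of footprint number and of the ratio between libraries. A few more were named for their role after their values were seen. Alternatives changed the promoter width, the starts used, the peak list, the motif window and the libraries. The values of 1 member are not reported here.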

Additional observations from a re-analysis of the deposited data

How the results depend on the processing

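No paired analysis was possible because there is 1 group of 2 libraries. Under the alternatives tried, 84 promoter peaks in both libraries stayed between 82 and 84, footprints between 83 and 84, and shared promoters between 30 and 33 members. Median footprints per promoter, 6.5 as the mean of the libraries, stayed between 5 and 7, and the centred ratio of the libraries between 0.07 and 0.11. The value of 5 came from footprints inside peaks alone. The median percentile of member promoter signal, 69.2 as the median of means over the libraries, was 65.0 with the stronger 50% of peaks and 61.0 with the sum of promoter peaks, which counts overlapping peaks in full, and 64.3 to 68.5 when a library was left out. The log2 ratio of Cox6a2 over Cox6a1 was −2.71 with sums and could not be formed from the stronger 50% of peaks, where Cox6a2 has none. The other isoform ratios kept their sign and stayed within their SD. With 500 bp on either side of the principal start, motif shares were 31.0% of members for NRF1 (12.9% of all coding genes), 31.0% for ETS (19.6%) and 28.7% for YY1 (6.50%). With the 5′ end of the gene as the start, they were 18.4% for NRF1 (8.02%), 18.4% for ETS (10.9%) and 4.6% for YY1 (2.91%). The coding shares of both windows include genes with no peak. Shares among open promoters were not computed for them. The 150 bp around the centre of the strongest peak of replicate 1 were also scanned, for genes with such a peak. The shares were 27.4% for NRF1 (11.3%), 16.7% for ETS (12.7%) and 11.9% for YY1 (3.12%). Distal peaks in both libraries were found for 43 members, against 27 with the stricter list, 27 with the stronger 50% of peaks and 65 within 50 kb, and 44 to 71 when a library was left out. The share over all coding genes was not computed for the other lists and distance, so those counts describe the settings and not the members. The cause of these moves was not tested. Cox6a2 rests on 148 and 106 tags, and the absence of a peak at Cox4i2, Cox7b2 and Cox8c is the absence of a call at this depth. The effect of depth on weak promoters was not tested.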
